A study of Homo sapiens with 12 samples.

Results

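The 10 genes that make up the E2F, pocket protein and DREAM circuit were followed through drug exposure and release in A375 cells, a human melanoma line with a BRAF mutation. They were the 10 rows, of 44659 in the count table, with the symbols E2F1, E2F2, E2F3, E2F7, E2F8, RBL1, RBL2, MYBL2, FOXM1 and LIN54. The rows were picked by symbol, but the set was chosen with earlier results of these data known. There were 3 libraries in each of 4 groups, all from the same line. CC, the control, had DMSO in the medium for 72 h. TC was treated for 72 h with 2 inhibitors (MAPKi), vemurafenib at 500 nM against BRAF and cobimetinib at 500 nM against MEK. In PC, the persister cells, the same 72 h of MAPKi were followed by 2 days in drug-free medium, and in RC, the recovered cells, by 9 days. CC and TC were collected at day 0, so that day of harvest and time without drug cannot be told apart in PC and RC. RNA came from the cytoplasmic fraction of cultures of 1 line, and nothing in the labels says that replicates were started separately, so p-values measure the spread between these libraries.

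E2F transcription factors switch on the genes that a cell needs to copy its DNA. E2F1, E2F2 and E2F3 are activators, and E2F7 and E2F8 are atypical members that repress many of the same genes. The pocket proteins p107 (RBL1) and p130 (RBL2) bind E2F. In resting cells p130 together with E2F4, a DP partner and the MuvB core forms DREAM, which silences cell cycle genes in quiescence. LIN54 is the DNA-binding subunit of MuvB. When cells cycle, MuvB leaves the pocket protein and joins B-MYB (MYBL2) and then FOXM1 to activate genes of G2 and mitosis. In BRAF-mutant melanoma the MAPK pathway drives cyclin D1, which with its kinase partners phosphorylates the pocket proteins.

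Several of these regulators are themselves known E2F targets, so the sequence just upstream of their start sites is shown for a set of members. Their changes in TC were strong, weak or not called, and E2F2 was not tested. RefSeq promoters (GRCh38.p14, 250 bases before to 50 after a start site) were matched for 8 of the 10 members by symbol, with 11 windows among them. E2F8 and FOXM1 had no entry. Letters of 3 kinds were searched on both strands and chosen after the sequences had been seen. The E2F core was searched as the run TTCCCGC, as the run TTCGCGC, as the run TTGCCGC and as the run TTGGCGC. The second kind was GGCGGGA, which can overlap with the first of these runs on the opposite strand. The third was the CHR, the element read by MuvB, as the run TTTGAA and as the run TTCGAA, which overlap with none of the others. The printed stretches are 80 bases each, written 5′ to 3′ along the gene, with every match of the first 2 kinds in capitals. They end at the base before the start, except for E2F7, where positions −180 to −101 from the start are shown.
E2F1 (chr20:33686386-33686465, minus strand): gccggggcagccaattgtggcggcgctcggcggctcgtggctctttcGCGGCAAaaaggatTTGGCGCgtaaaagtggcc
E2F2 (chr1:23531234-23531313, minus strand): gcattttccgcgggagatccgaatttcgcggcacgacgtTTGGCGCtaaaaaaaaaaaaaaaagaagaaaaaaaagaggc
E2F3 (chr6:20401799-20401878, plus strand): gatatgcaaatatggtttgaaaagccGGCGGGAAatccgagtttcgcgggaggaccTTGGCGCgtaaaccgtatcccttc
E2F7 (chr12:77065670-77065749, minus strand): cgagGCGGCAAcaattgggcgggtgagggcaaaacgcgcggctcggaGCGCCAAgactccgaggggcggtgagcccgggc
RBL1 (chr20:37095998-37096077, minus strand): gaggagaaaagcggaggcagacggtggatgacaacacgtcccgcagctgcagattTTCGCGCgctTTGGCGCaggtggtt
MYBL2 (chr20:43667034-43667113, plus strand): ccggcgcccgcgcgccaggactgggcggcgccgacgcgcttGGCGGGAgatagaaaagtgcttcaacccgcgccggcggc
RBL2 (chr16:53434391-53434470, plus strand): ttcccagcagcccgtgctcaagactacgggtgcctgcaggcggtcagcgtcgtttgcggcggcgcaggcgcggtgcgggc

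The E2F core letters were found in windows of 5 of the 8 matched members (E2F1, E2F2, E2F3, E2F7 and RBL1). By window they were in 5 of the 11, and 13% of all 35116 RefSeq promoter windows held them. The shares of all windows given here count single windows, while a member with 2 windows counts once if either holds a match. E2F1, E2F3, E2F7 and RBL1 each had 2 such matches in a window. GGCGGGA was found in 5 members (E2F1, E2F3, RBL1, MYBL2 and LIN54) and in 15.4% of all windows. RBL2 held neither of these in its 2 windows. The CHR letters were found in 3 members (E2F3, RBL2 and LIN54) and in 16.4% of all windows, and in RBL2 they began at position 25, past the start. E2F1 held the E2F core letters, and E2F3 held them in its window 1 (2 matches) but not in its window 2 (0 matches). E2F1 fell in TC, where E2F3 did not pass the test. Whether the letters bear on these changes was not tested. A match is a run of letters and not a measured site of binding, and a member without a match, such as MYBL2 for the E2F core, may still hold a site.

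Total counts ran from 37773389 to 55567097 per library. All 6 melanocyte lineage markers (MITF, SOX10, MLANA, PMEL, TYR, DCT) were above 3 counts, and their summed level in CPM (read counts scaled to a common normalized library size) was 1356 to 1655 in CC, 6948 to 10141 in TC, 3214 to 4820 in PC and 1325 to 1383 in RC. DCT made up most of this sum in TC (5261 to 7866 CPM) and PC (1955 to 3177), where CC had 336.9 to 444.0. The markers did not all rise. MITF had 303.3 to 476.1 CPM in CC, 235.9 to 406.8 in TC and 146.7 to 287.9 in PC. Of 10 markers of other cell types, KRT5, CDH5, PECAM1 and CD3E stayed at 3 counts or fewer in all libraries, and KRT14 did so in CC and RC. The summed level of these 10 was 138.3 to 193.5 CPM in CC, 735.5 to 1086 in TC, 650.1 to 795.0 in PC and 127.6 to 140.6 in RC. Nearly all of it was CD68, a lysosomal gene used as a macrophage marker, at 126.9 to 173.1 CPM in CC, 718.9 to 1065 in TC, 632.5 to 774.0 in PC and 118.4 to 131.4 in RC. The other 9 summed to 11.4 to 20.4 CPM in CC, 16.6 to 21.7 in TC, 17.7 to 21.0 in PC and 9.22 to 10.4 in RC. Single markers among them moved both ways. PTPRC, the pan-leukocyte marker, went from 22 to 29 counts in CC to 0 to 4 in TC and 5 to 8 in PC. KRT14 had 21, 15 and 14 counts in TC and 88, 89 and 114 in PC. COL1A1 had 31, 26 and 14 counts in CC and 77, 224 and 166 in PC. Of the 10 markers 6 were tested. In TC 3 were higher and 2 lower (33.2% and 34.7% of all genes), and in PC 3 and 2 (33.2% and 35.9%). The part of these markers in the results was not tested. In bulk RNA, fewer cycling cells and less RNA per cell cannot be told apart.

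E2F2 was barely seen under its own name. It had 0 counts in all CC and TC libraries, 1 count in PC replicate 1, and 0, 1 and 3 counts in RC replicates 1 to 3, and it was not tested. The table also lists an entry named E2F2_1, among 5088 entries with numbered names, and most reads that belong to E2F2 may have been assigned there, so values for E2F2 are uncertain. The E2F2_1 entry had 48, 55 and 21 counts in CC, 2 in each TC library, 3, 2 and 7 in PC, and 38, 44 and 36 in RC. Relative to the library totals, CC had 20.8 times the level of TC (95% exact counting interval 9.29 to 57.8) and 9.96 times that of PC (5.50 to 19.8), and 1.17 times that of RC (0.900 to 1.51). These intervals cover counting error only.

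The other 9 members passed the filter, a mean scaled count of at least 10. Under MAPKi 8 of the 9 were lower in TC than in CC at an adjusted p under 0.05, where 34.7% of all 15916 tested genes were lower. Of these 5, E2F1, E2F8, RBL1, MYBL2 and FOXM1, fell beyond 1.5-fold (19.3% of all genes did so). After 2 days without drug 8 were still lower in PC than in CC (35.9% of all genes), but only 2, E2F1 and E2F8, were lower beyond 1.5-fold (19.9%). Of the 8, E2F7 lost its call in 13 of the alternatives (other ways of processing, listed below) and LIN54 in 6. At 9 days 5 of the 9 were higher in RC than in CC (18.2% of all genes) and 1, RBL2, was lower (19.1%), and MYBL2 and FOXM1 were higher beyond 1.5-fold (1.35%). Of the 5, LIN54 lost its call in 14 of the alternatives. E2F1, E2F3 and E2F8 gained a call in 1, 1 and 2 of them. The median log2 fold change of the 9 members was −1.13 in TC, −0.42 in PC and 0.41 in RC, and that of all tested genes was −0.02, −0.04 and 0.00. All 3 comparisons share the CC libraries.

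**Figure D1:**
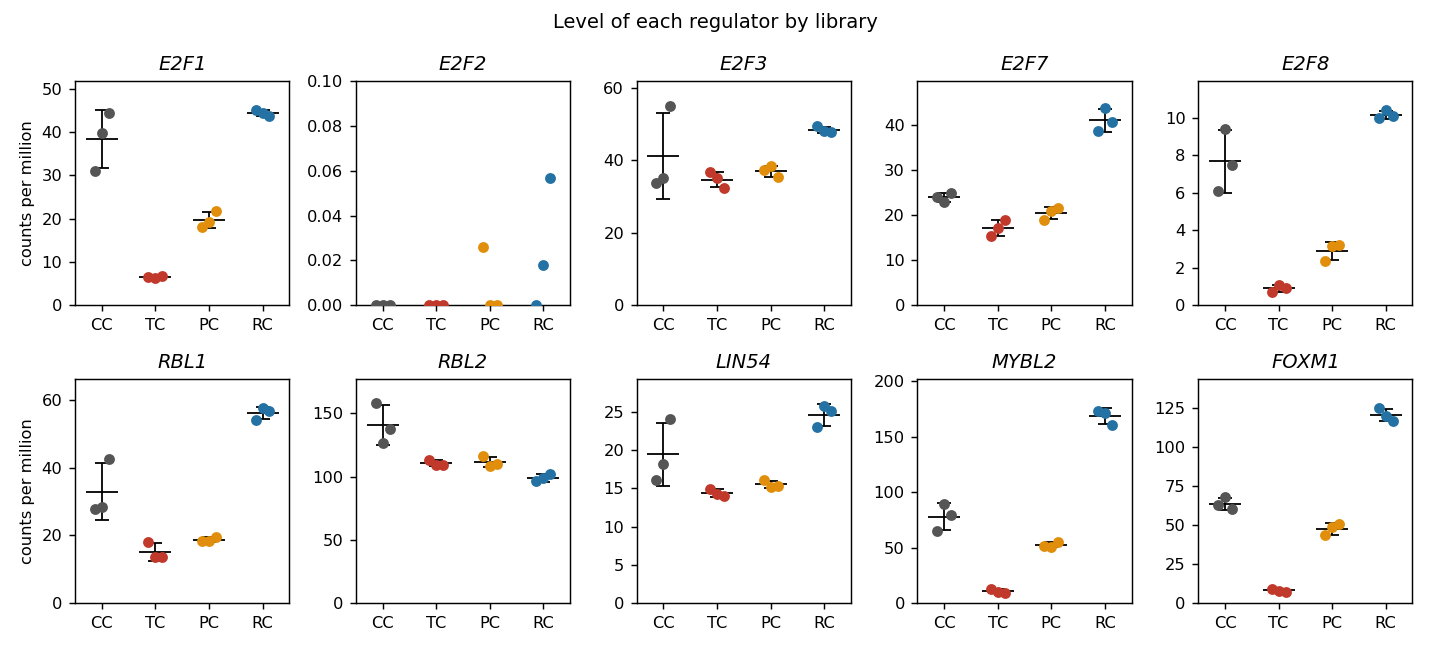
Level of each of the 10 genes in CPM (linear axis from 0) in the 3 libraries of CC, TC, PC and RC, with a bar at the mean and whiskers of 1 SD (n = 3), drawn for all but E2F2, whose axis ends at 0.1. MYBL2 and FOXM1 sit lowest in TC and highest in RC, while RBL2 sits highest in CC and lowest in RC.

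E2F1, the activator that drives entry into S phase, had 31.0, 39.8 and 44.3 CPM in CC replicates 1 to 3. It had 6.53, 6.31 and 6.70 CPM in TC and 18.2, 19.3 and 21.7 in PC, with 45.1, 44.4 and 43.8 in RC. The TC and PC libraries lay below all CC libraries and the RC libraries overlapped with them. E2F1 fell 5.89-fold in TC (log2 fold change −2.56, SE 0.12, adjusted p = 3.7e-09) and was 1.95-fold lower in PC (−0.96, SE 0.11, adjusted p = 1e-05). In RC its log2 difference was 0.21 (95% interval −0.04 to 0.46, adjusted p = 0.162). Without CC replicate 3 this became 0.33 with an adjusted p of 0.0283.

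E2F3, the other activator with reads, had 33.8, 35.1 and 55.0 CPM in CC, and CC replicate 3 stood above the rest of its group. Its levels were 36.7, 35.0 and 32.5 CPM in TC and 37.2, 38.4 and 35.3 in PC, with 49.5, 48.1 and 47.9 in RC. All 3 groups overlapped with CC. The log2 difference was −0.25 in TC (95% interval −0.57 to 0.07, adjusted p = 0.152), −0.16 in PC (−0.48 to 0.16, adjusted p = 0.353) and 0.23 in RC (−0.09 to 0.55, adjusted p = 0.240). Leaving out a CC library changed 2 of these calls. Without CC replicate 1 the TC difference was −0.38 (adjusted p = 0.0391), and without CC replicate 3 the RC difference was 0.50 (adjusted p = 0.00024).

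E2F7 and E2F8 are the atypical repressors, which act as a pair on many promoters. E2F8 had 6.09, 9.40 and 7.49 CPM in CC and 0.726, 1.07 and 0.914 in TC. The PC libraries were at 2.35, 3.17 and 3.19 CPM and the RC libraries at 10.0, 10.4 and 10.1. E2F8 fell 8.45-fold in TC (log2 fold change −3.08, SE 0.21, adjusted p = 6.5e-08), which was the deepest fall among the 9 members, and it was 2.63-fold lower in PC (−1.40, SE 0.19, adjusted p = 3.1e-05). All 3 RC libraries lay above CC, but the log2 difference of 0.41 did not pass (SE 0.18, adjusted p = 0.102). It passed with the replicate number as a block (0.43, adjusted p = 0.0338) and without CC replicate 2 (0.58, adjusted p = 0.0292).

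E2F7 was at 24.1, 22.8 and 24.8 CPM in CC, 15.3, 17.2 and 18.8 in TC, and 18.9, 20.8 and 21.5 in PC. It reached 38.6, 43.7 and 40.6 CPM in RC, above every other library. In TC it fell 1.40-fold (log2 fold change −0.48, SE 0.09, adjusted p = 0.00044). In PC the difference of −0.23 passed narrowly (adjusted p = 0.0390) and was lost in 13 of the alternatives, with adjusted p-values up to 0.142 without PC replicate 1. In RC it rose 1.72-fold (0.78, SE 0.09, adjusted p = 7.4e-05).

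The genes of the pocket proteins p107 and p130 changed in opposite directions in RC. RBL1 (p107), itself a known E2F target, had 27.8, 28.2 and 42.5 CPM in CC, with replicate 3 highest. It had 18.1, 13.6 and 13.6 CPM in TC and 18.2, 18.2 and 19.5 in PC, with 54.0, 57.6 and 56.7 in RC. RBL1 fell 2.18-fold in TC (log2 fold change −1.13, SE 0.16, adjusted p = 4.4e-05) and was 1.76-fold lower in PC (−0.82, SE 0.16, adjusted p = 0.00051). It was 1.71-fold higher in RC (0.77, SE 0.15, adjusted p = 0.00227), with no overlap between RC and CC.

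RBL2 (p130), the pocket protein of DREAM in resting cells, was lower in every other group than in CC. Its levels were 158.2, 126.7 and 137.7 CPM in CC and 113.1, 109.4 and 108.8 in TC. In PC the values were 116.1, 108.7 and 109.8 CPM and in RC 96.3, 98.5 and 102.4. No library of TC, PC or RC reached the lowest CC library. The log2 fold change was −0.35 in TC (SE 0.07, adjusted p = 0.00116), −0.34 in PC (SE 0.07, adjusted p = 0.0015) and −0.51 in RC (SE 0.08, adjusted p = 0.00033), and none was called beyond 1.5-fold. Exons of other genes on the opposite strand overlap 16.4% of the RBL2 exons, and whether counting used strand is not given in the sources used here, so some of its reads may belong to those genes.

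LIN54, the subunit by which MuvB reads its DNA element, differed little from CC. It had 16.1, 18.2 and 24.0 CPM in CC and 15.0, 14.3 and 13.9 in TC. PC had 16.1, 15.2 and 15.3 CPM and RC had 23.0, 25.8 and 25.1. LIN54 was 1.35-fold lower in TC (log2 fold change −0.44, SE 0.12, adjusted p = 0.00758). The PC difference of −0.33 (adjusted p = 0.0314) shrank to −0.14 without CC replicate 3 (adjusted p = 0.165) and was lost in 6 of the alternatives in all. The RC difference of 0.34 (adjusted p = 0.0456) was lost in 14 of the alternatives, and RC and CC overlapped. From PC to RC LIN54 rose 1.59-fold (log2 fold change 0.67, SE 0.12, adjusted p = 0.00037), and this was not called beyond 1.5-fold.

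MYBL2 (B-MYB), the MuvB partner of cycling cells, had 64.8, 89.4 and 79.8 CPM in CC. It dropped to 12.4, 9.63 and 9.33 CPM in TC, stood at 51.8, 50.6 and 55.3 in PC, and reached 173.6, 171.7 and 160.3 in RC. The 4 groups did not overlap. MYBL2 fell 7.48-fold in TC (log2 fold change −2.90, SE 0.13, adjusted p = 2.2e-09), was 1.48-fold lower in PC (−0.57, SE 0.12, adjusted p = 0.00095) and was 2.16-fold higher in RC (1.11, SE 0.12, adjusted p = 5.1e-05).

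FOXM1, the factor that activates mitotic genes late in G2, followed the same order of groups. It had 62.7, 67.9 and 60.3 CPM in CC and 9.15, 7.74 and 7.27 in TC. The PC libraries were at 43.5, 48.4 and 50.6 CPM and the RC libraries at 125.0, 119.9 and 117.1. FOXM1 fell 7.92-fold in TC (log2 fold change −2.99, SE 0.09, adjusted p = 1.8e-10), was 1.34-fold lower in PC (−0.42, SE 0.09, adjusted p = 0.00075) and was 1.90-fold higher in RC (0.92, SE 0.09, adjusted p = 2.6e-05). ITFG2, on the opposite strand, overlaps 15.9% of the FOXM1 exons.

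**Figure D2:**
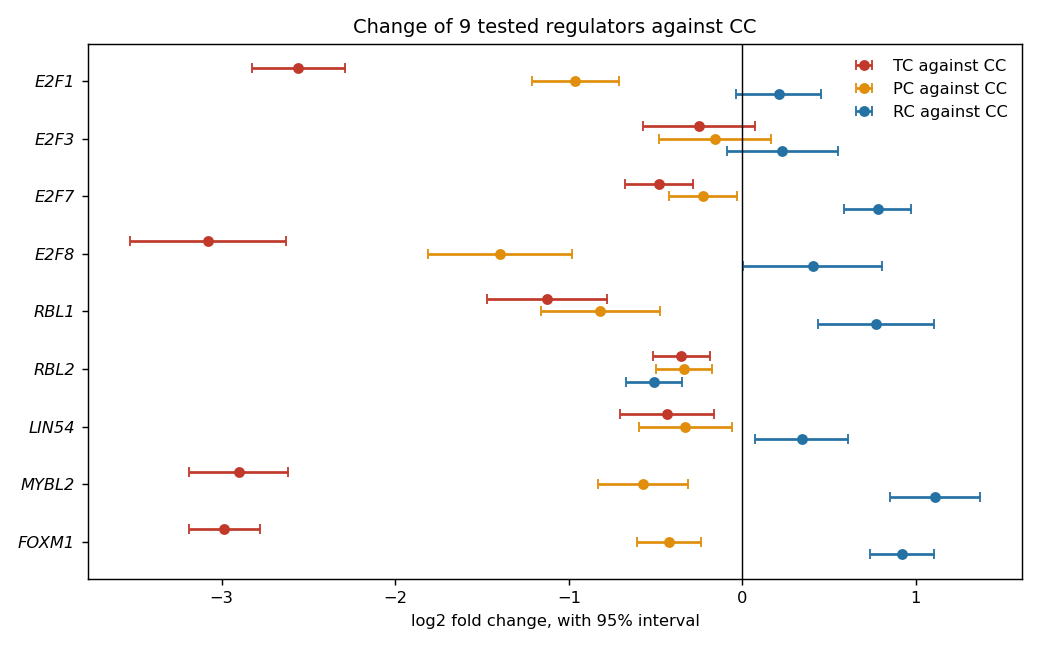
Log2 fold change of the 9 tested members in TC, PC and RC against CC (horizontal axis), with 95% intervals from the fit over 12 libraries. E2F1, E2F8, MYBL2 and FOXM1 lie between −3.08 and −2.56 in TC, and RBL2 is the member that lies below 0 in all 3 with intervals that exclude it, with a value of −0.51 in RC.

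The first step after release, from TC to PC, raised 4 of the 9 members at an adjusted p under 0.05 (12.2% of all genes rose) and lowered none (12.5% of all genes fell), with 0 lower at an unadjusted p under 0.05 and 0 lower by DESeq2. The same 4 rose beyond 1.5-fold, which 2.33% of all genes did. In 7 members all PC libraries lay above all TC libraries, as in 23.7% of all genes. FOXM1 rose 5.92-fold (log2 fold change 2.56, SE 0.09, adjusted p = 2.7e-08) and MYBL2 5.04-fold (2.33, SE 0.13, adjusted p = 3.8e-07). E2F8 rose 3.21-fold (1.68, SE 0.20, adjusted p = 0.00011) and E2F1 3.03-fold (1.60, SE 0.12, adjusted p = 3.7e-06). The other 5 did not pass. RBL1, which had fallen 2.18-fold, differed by 0.31 (95% interval −0.04 to 0.65, adjusted p = 0.184) and E2F7 by 0.26 (0.06 to 0.45, adjusted p = 0.0579), while RBL2 differed by 0.02 (−0.15 to 0.18, adjusted p = 0.914). E2F7 passed in 5 of the alternatives (adjusted p from 0.0276 to 0.0415), and RBL1 passed without CC replicate 3 (0.31, adjusted p = 0.0374).

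The order of the members changed between TC and PC. At 2 days FOXM1 stood at 74.7% of its CC mean, MYBL2 at 67.4%, E2F1 at 51.3% and E2F8 at 37.9%. In TC the same 4 had stood at 12.7%, 13.4%, 17.0% and 11.8%. RBL1, by contrast, went from 45.9% to 56.8%, below FOXM1 and MYBL2 in PC although above both in TC.

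Between PC and RC 8 of the 9 members rose (35.7% of all genes rose), 6 of them beyond 1.5-fold (20.2%). The changes were 3.49-fold for E2F8 (log2 fold change 1.80, SE 0.19, adjusted p = 3.4e-06), 3.21-fold for MYBL2 (1.68, SE 0.12, adjusted p = 1e-07) and 3.01-fold for RBL1 (1.59, SE 0.16, adjusted p = 2e-06). FOXM1 rose 2.54-fold, E2F1 2.25-fold and E2F7 2.01-fold. LIN54 (1.59-fold) and E2F3 (1.31-fold) rose by less. The rise of E2F3 had an adjusted p of 0.0320 and was lost when any 1 of the PC or RC libraries was left out. RBL2 was lower in all 3 RC libraries than in PC (log2 difference −0.17, adjusted p = 0.0574), and the difference passed in 6 of the alternatives (adjusted p from 0.00603 to 0.0421).

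**Figure D3:**
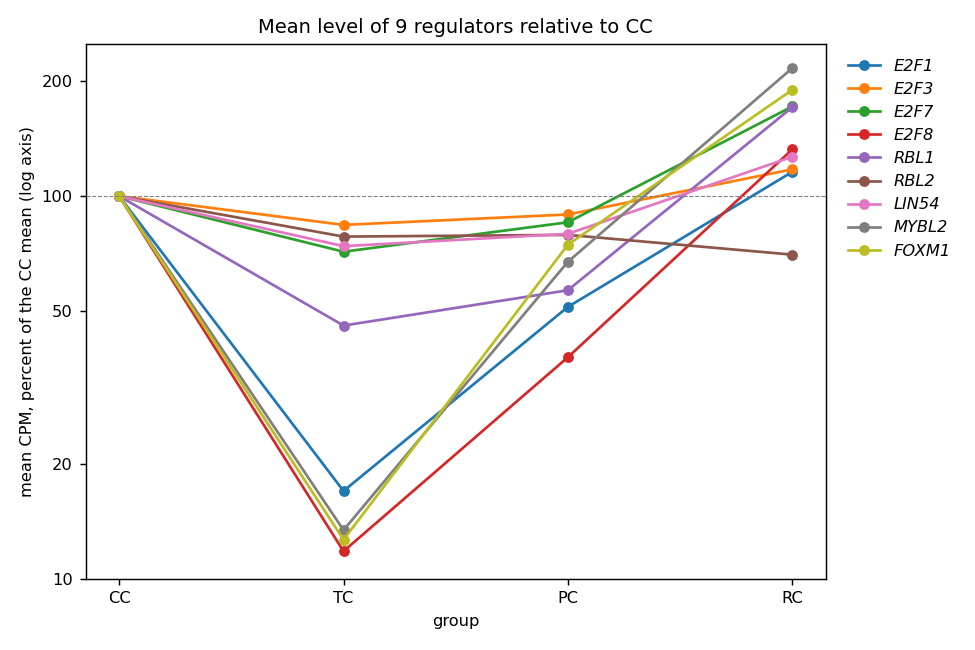
Mean CPM of each of the 9 tested members as a percent of its CC mean (log axis) in the groups CC, TC, PC and RC, with lines that join the 4 group means of a gene and no error bars. FOXM1 goes from 12.7% in TC to 74.7% in PC and 189.5% in RC, and RBL2 ends at 70.3%.

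Levels can be compared between genes only per length of exon. On the scale of CPM per kilobase of annotated exon, MYBL2 was highest in CC at 28.1 ± 4.46 (SD, n = 3), followed by RBL2 at 17.4 ± 1.97, E2F1 at 14.3 ± 2.51 and FOXM1 at 12.9 ± 0.794. RBL2, E2F1 and FOXM1 were neighbours whose libraries overlapped. E2F3 (7.96 ± 2.29) and RBL1 (5.52 ± 1.41) overlapped as well, and E2F7 (3.80 ± 0.162), LIN54 (2.88 ± 0.606) and E2F8 (1.85 ± 0.401) followed.

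In TC the top of that order was held by RBL2, at 13.6 ± 0.285 CPM per kilobase, and E2F3, at 6.69 ± 0.411, ahead of MYBL2 at 3.77 ± 0.612. FOXM1 was next to last among the tested members at 1.64 ± 0.198. In PC MYBL2 was again first (18.9 ± 0.896), ahead of RBL2 (13.8 ± 0.491) and FOXM1 (9.66 ± 0.737). In RC MYBL2 reached 60.7 ± 2.59 and FOXM1 24.5 ± 0.823, and RBL2, at 12.2 ± 0.380, stood behind E2F1 at 16.5 ± 0.241.

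The balance of p130 to p107 transcripts was taken within each library, where scaling between libraries has no effect. The count ratio of RBL2 to RBL1 was 5.68, 4.49 and 3.24 in CC and 6.26, 8.03 and 8.03 in TC. It was 6.37, 5.96 and 5.64 in PC and 1.78, 1.71 and 1.81 in RC. RC lay below and TC above all CC libraries, and PC overlapped with CC. The mean log2 ratio differed from CC by 0.76 in TC (exact permutation test, two-sided, p = 0.1), by 0.46 in PC (exact p = 0.2) and by −1.30 in RC (exact p = 0.1). With 3 libraries against 3 the smallest p that this test can give is 0.1. Adjusted over the 6 ratio tests by the Benjamini-Hochberg method, the p-values ran from 0.2 to 0.9.

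The ratio of the repressors E2F7 and E2F8 to the activators E2F1, E2F2 and E2F3 was taken in the same way. It was 0.466, 0.429 and 0.325 in CC and 0.371, 0.441 and 0.505 in TC. In PC the values were 0.384, 0.415 and 0.433 and in RC 0.514, 0.58 and 0.552. RC lay above all CC libraries, and TC and PC overlapped with them. The mean log2 ratio differed from CC by 0.11 in TC (exact permutation p = 0.6), 0.03 in PC (exact p = 0.9) and 0.45 in RC (exact p = 0.1). Without CC replicate 3 the TC and PC differences changed sign, to −0.04 and −0.12.

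**Figure D4:**
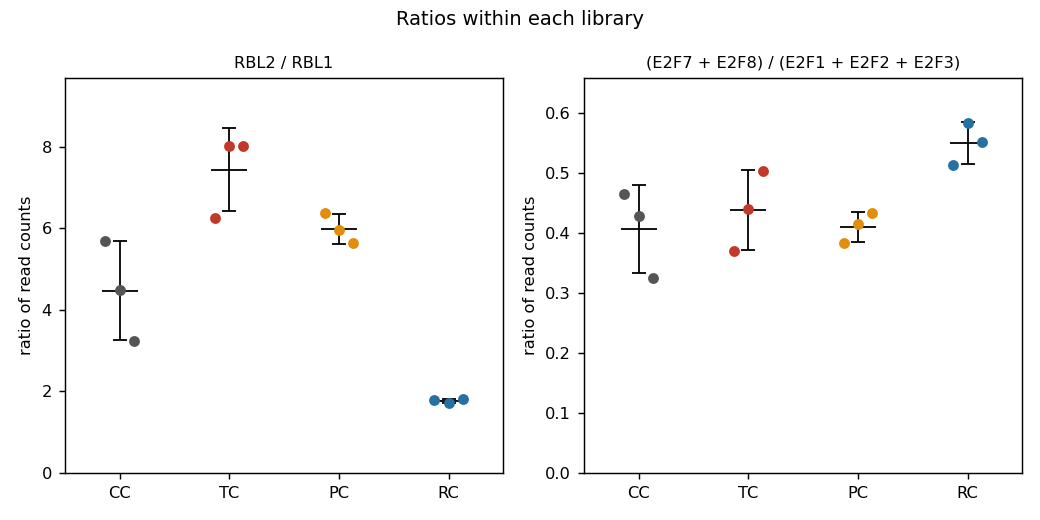
Ratio of read counts within each library, of RBL2 to RBL1 on the left and of E2F7 plus E2F8 to E2F1 plus E2F2 plus E2F3 on the right, for 3 libraries a group with the mean and 1 SD, on linear axes from 0. The 3 RC libraries sit between 1.71 and 1.81 on the left and between 0.514 and 0.58 on the right.

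The members varied most among the CC libraries. Their median coefficient of variation was 17.6% in CC, 10.4% in TC, 4.73% in PC and 3.30% in RC. Over all tested genes it was 14.2%, 8.77%, 6.91% and 6.12%. CC replicate 3 was the highest of its group for 5 members and CC replicate 1 the lowest for 6, and this spread is the one against which all 3 comparisons with CC were made.

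Partners of these factors were examined next. Of the 7 other E2F, DP and RB genes, 6 were tested and none was called beyond 1.5-fold in any comparison. The repressor E2F5 was lower in TC (log2 fold change −0.71, adjusted p = 0.00025), PC (−0.58, adjusted p = 0.00106) and RC (−0.42, adjusted p = 0.0176), and the RC call was lost in 6 of the alternatives, with adjusted p-values up to 0.0753. E2F6, a repressor that acts without pocket proteins, was higher in TC (0.41, adjusted p = 0.0105) and PC (0.43, adjusted p = 0.00774), and the RC value was 0.09 (adjusted p = 0.603). E2F4, the E2F of DREAM, was higher in PC (0.31, adjusted p = 0.0182), a call lost in 4 of the alternatives (adjusted p up to 0.075), with −0.11 in RC (adjusted p = 0.434) and 0.20 in TC (adjusted p = 0.105). Without CC replicate 3 the TC value of E2F4 was 0.37 (adjusted p = 0.00013) and the RC value of E2F6 was 0.30 (adjusted p = 0.00336), and both passed.

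The retinoblastoma gene RB1 was higher in all 3 groups, by 0.31 in TC (adjusted p = 0.00561), 0.33 in PC (adjusted p = 0.00354) and 0.55 in RC (adjusted p = 0.00038) on the log2 scale. TFDP1, the DP partner of the activator E2Fs, was lower in TC (−0.51, adjusted p = 9.8e-05) and higher in RC (0.63, adjusted p = 0.00012), and it rose from TC to PC (0.64, adjusted p = 0.00014). TFDP2 was lower in TC, PC and RC (−0.34, −0.26 and −0.33, adjusted p-values 0.00015, 0.001 and 0.00071). TFDP3 was not tested.

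The 7 genes of the MuvB core, the MYB family and the DREAM kinase were all tested, and 5 were lower in TC and 1 higher (34.7% and 33.2% of all genes). The largest falls were those of the MYB relatives and of LIN9. MYBL1 (A-MYB) went from 23.9 CPM in CC to 4.35 in TC (log2 fold change −2.46, adjusted p = 4.9e-08), and MYB from 1.04 to 0.0701 CPM, the latter resting on 3 counts in each library (adjusted p = 1.6e-06). LIN9, a MuvB subunit needed for binding to B-MYB, was lower in TC (−1.44, adjusted p = 4.8e-07) and in PC (−1.23, adjusted p = 1.8e-06).

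The other MuvB subunits moved little in TC. The histone binder RBBP4 was at −0.26 (adjusted p = 0.00042), LIN52 at −0.25 (adjusted p = 0.0148, lost in 4 of the alternatives with adjusted p up to 0.0948) and LIN37 at 0.11 (adjusted p = 0.369). DYRK1A, the kinase that phosphorylates LIN52 for assembly of DREAM, was higher in TC (0.53, adjusted p = 0.00016) and PC (0.30, adjusted p = 0.00728), and its RC value was −0.08 (adjusted p = 0.512). LIN9 did not pass from TC to PC (0.21, adjusted p = 0.233) and rose from PC to RC (1.47, adjusted p = 3.5e-07). In RC 3 of the 7 were higher than in CC (18.2% of all genes were). They were MYBL1 (1.06, adjusted p = 0.00024), MYB (1.05, adjusted p = 0.0113) and LIN52 (0.22, adjusted p = 0.0443, lost in 13 of the alternatives).

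Upstream of the pocket proteins, 13 of 15 genes for G1 cyclins, their kinases and inhibitors were tested. In TC 6 were lower and 1 higher, in PC 6 were lower and 3 higher, and in RC 3 were lower and 6 higher. Of all tested genes 34.7% were lower and 33.2% higher in TC, and for PC these shares were 35.9% and 33.2%. RC had 19.1% lower and 18.2% higher. The median log2 fold change of this list was −0.16, −0.11 and 0.17. Cyclin D1 (CCND1) was at 252.7, 192.0 and 307.7 CPM in CC and at 71.2, 78.7 and 72.1 in TC. It stayed low in PC, at 77.7, 81.2 and 93.2 CPM, and the TC-to-PC difference was 0.18 (95% interval −0.11 to 0.48, adjusted p = 0.362).

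CDKN2C, which encodes the CDK4 and CDK6 inhibitor p18, went the other way. It had 20.6, 32.0 and 16.1 CPM in CC and 35.8, 38.9 and 37.0 in TC. PC had 88.0, 87.5 and 96.4 CPM and RC had 41.0, 39.5 and 37.6. The log2 fold change against CC was 0.70 in TC (adjusted p = 0.00428), 1.99 in PC (adjusted p = 1.1e-06) and 0.78 in RC (adjusted p = 0.00536). CDKN2A, which encodes p16, was lower in TC (−1.36, adjusted p = 2.4e-06), and CCND3 was higher in RC (0.92, adjusted p = 3.7e-05).

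Genes known as targets of these factors were counted from lists written from general knowledge. Of 30 G1/S targets of E2F, 29 were lower in TC (34.7% of all genes), 28 lower (35.9%) and 1 higher in PC, and 28 higher (18.2%) and 1 lower in RC. Their median log2 fold change was −1.97, −1.31 and 0.68. Of 31 G2/M targets of MuvB, B-MYB and FOXM1, all 31 were lower in TC (34.7% of all genes) and in PC (35.9%). In RC 30 were higher (18.2%), and the medians were −3.79, −1.74 and 0.77. From TC to PC 21 of the G1/S targets rose (median 0.67) and 31 of the G2/M targets rose (median 2.05), where 12.2% of all genes rose. From PC to RC 29 and 31 rose (medians 1.99 and 2.54), where 35.7% of all genes rose. The medians of all tested genes in these last comparisons were 0.00 and 0.02.

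Among the G1/S targets, CDT1, which loads the replicative helicase, fell furthest in TC. It had 134.8, 139.2 and 128.4 CPM in CC and 8.76, 9.48 and 8.39 in TC. The PC libraries were at 15.7, 16.8 and 17.8 CPM and the RC libraries at 109.6, 111.7 and 111.7. CDT1 was the target lower in RC (log2 fold change −0.27, adjusted p = 0.00479). CDC45, a part of that helicase, was at −3.29 in TC (adjusted p = 1.2e-09), −1.57 in PC (adjusted p = 2.5e-07) and 0.73 in RC (adjusted p = 0.00064). The E cyclins moved least in TC, with −0.43 for CCNE1 (adjusted p = 0.00398) and −0.16 for CCNE2 (adjusted p = 0.398).

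CCNE2 was the G1/S target that was higher in PC than in CC. It had 1.51, 1.97 and 1.69 CPM in CC and 1.55, 1.64 and 1.44 in TC. In PC the values were 3.27, 3.82 and 3.17 CPM and in RC 2.76, 2.72 and 2.48. CCNE2 rose from TC to PC by 1.15 on the log2 scale (adjusted p = 0.00033), and all 3 PC libraries lay above all others.

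Among the G2/M targets, CDC25C, a phosphatase that activates CDK1, and the mitotic kinase NEK2 fell furthest. CDC25C was at 14.6, 19.2 and 12.7 CPM in CC and 0.363, 0.562 and 0.560 in TC. PC had 2.22, 2.56 and 2.78 CPM and RC had 24.6, 24.6 and 25.1. NEK2 went from 53.3, 70.8 and 42.6 CPM in CC to 2.18, 2.27 and 2.07 in TC and 10.8, 11.6 and 11.6 in PC. The smallest falls in TC were those of the kinesin KIF23 (log2 fold change −2.06, adjusted p = 2.9e-09) and of CDC25B (−1.92, adjusted p = 1.9e-10). CDC25B was the target that did not pass in RC (0.14, adjusted p = 0.0791), although it did in 3 of the alternatives.

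**Figure D5:**
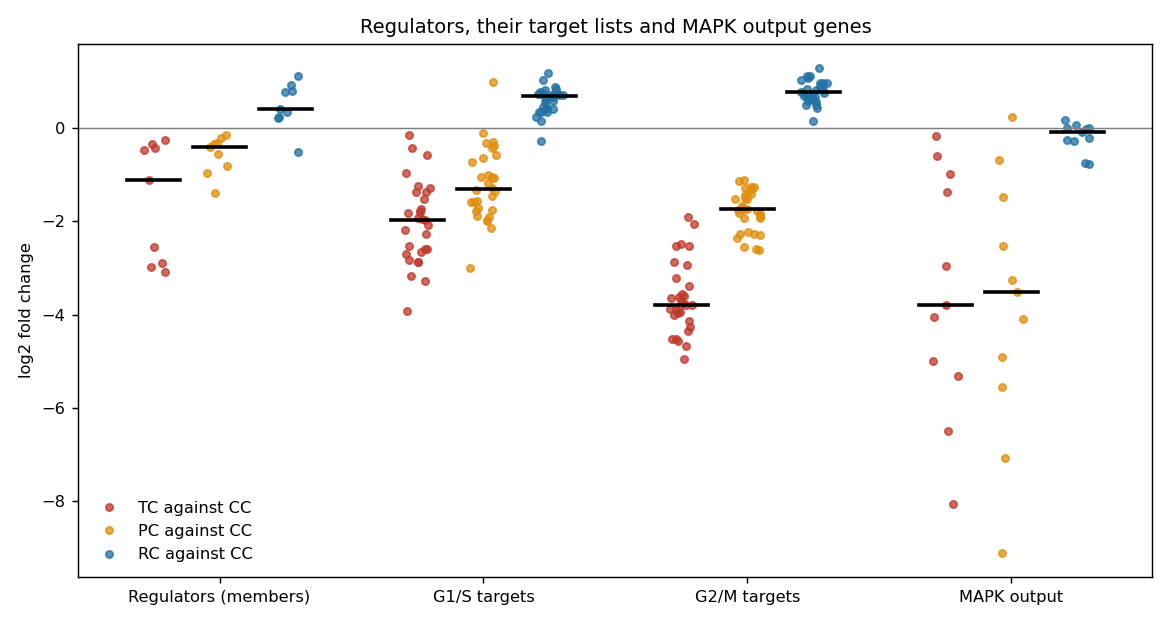
Log2 fold change against CC (vertical axis) of each tested gene of the members, the G1/S targets, the G2/M targets and the MAPK output genes, in TC, PC and RC, with a black line at each median and points spread sideways at random. The medians of the G2/M targets go from −3.79 in TC to −1.74 in PC, and those of the MAPK output genes from −3.79 to −3.52.

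The transcripts that report on MAPK signalling were read beside the members. Of 11 MAPK output genes 10 were lower in TC (34.7% of all genes) and 10 in PC (35.9%), with median log2 fold changes of −3.79 and −3.52. From TC to PC none of the 11 rose (12.2% of all genes) and 4 fell (12.5%) in the edgeR test. The same test called 4 members higher. ETV1, at 0.27 with an adjusted p of 0.0525, was the 1 gene higher at an unadjusted p under 0.05, and DESeq2 called it higher. SPRY4, a feedback inhibitor of the pathway, had 341.7, 270.3 and 719.6 CPM in CC and 1.79, 1.46 and 1.72 in TC. The PC libraries were at 0.837, 0.674 and 0.925 CPM and the RC libraries at 252.6, 248.7 and 285.3. The phosphatase gene DUSP6 was at 5.26, 3.25 and 3.32 CPM in TC and 6.09, 5.13 and 4.51 in PC, where CC had 77.6, 94.4 and 296.9. ETV4, an ETS factor, went from 2.77, 2.68 and 2.39 CPM in TC to 1.49, 1.63 and 2.08 in PC. FOXM1, MYBL2, E2F1 and E2F8 thus rose between TC and PC while SPRY4, DUSP6 and ETV4 stood at 0.183%, 3.36% and 0.739% of their CC means in PC. DUSP6 had stood at 2.52% in TC, so its mean did not fall. FOSL1 was the output gene not called lower than CC in TC or PC. It had 46.6 to 53.9 CPM in TC and 63.4 to 69.2 in PC, without overlap, but this rise did not pass the edgeR test. Its means were 88.5% and 116.9% of a CC mean that varied widely (56.6 CPM, SD 27.8).

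For each member the tested genes outside the circuit with the nearest pattern over the 12 libraries were found by the root mean square difference of centred log2 levels, among 11904 genes. The nearest to E2F8 was STMN1, with a difference of 0.139 on the log2 scale, and TPX2 followed at 0.199. The nearest to E2F1 was ANKRD29 (0.223), to MYBL2 SKA3 (0.248), to FOXM1 PIMREG (0.287) and to RBL1 RPS6KA5 (0.163). The distances were smaller for LIN54 and RBL2, which had no call beyond 1.5-fold. They were 0.0505 between LIN54 and CTDSPL2 and 0.0788 between RBL2 and PDE8A. These are descriptions over libraries that share groups.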

How the data were processed

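Cytoplasmic RNA, depleted of ribosomal RNA, was sequenced from 12 libraries of A375 cells. The deposited file holds raw counts per gene with no normalization. Per the labels and the study's methods, the authors trimmed reads with fastp 0.20.1, aligned them to GRCh38.p13 with HISAT2 2.2.1 and counted them with htseq-count (HTSeq 0.13.5) on the NCBI annotation, and strandedness is not given in the sources used here. Reads of overlapping or copied genes may therefore be split or mixed.

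Groups came from the labels. Genes with a mean scaled count of at least 10 were tested (15916 of 44659). With edgeR 4.0.16 (R 4.3.3), all 12 libraries entered a single quasi-likelihood fit in which each group had its own mean, with TMM factors of 0.965 to 1.02 and 8 residual degrees of freedom. Calls required a two-sided Benjamini-Hochberg adjusted p under 0.05 over all tested genes, and calls beyond 1.5-fold came from glmTreat. CPM used normalized library sizes. The 5 comparisons set every other group against CC, and PC against TC, and RC against PC. The fit was tested on simulated data.

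The members and lists were chosen with earlier results of these data known, so no list was tested as a set. Named genes were all members and both short lists, the 2 lowest and 2 highest in TC of the 3 longer lists (mean count of at least 100), any gene higher against its list, DUSP6, SPRY4 and ETV4. ETV1, FOSL1, KRT14, COL1A1, CD68 and PTPRC were named, and DCT and MITF were singled out, after their values were seen. Exon lengths, overlaps and gene positions came from GENCODE v44 (GRCh38), and not from the counting annotation. Alternatives were library totals, DESeq2 size factors, DESeq2 1.42.0, a summed count of at least 2, no filter, only the 2 groups compared, the replicate number as a block, and each library left out.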

Additional observations from a re-analysis of the deposited data

Results flagged for a closer look

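For 4 members the effect in PC against CC differed from that in TC against CC, by the direct test of PC with TC. The difference on the log2 scale was 1.60 for E2F1, 1.68 for E2F8, 2.33 for MYBL2 and 2.56 for FOXM1, with adjusted p-values of 3.7e-06, 0.00011, 3.8e-07 and 2.7e-08 (edgeR quasi-likelihood test). All 3 PC libraries lay above all 3 TC libraries for each of the 4. The summed melanocyte markers moved between the same groups, from 6948 to 10141 CPM in TC to 3214 to 4820 CPM in PC. DCT made up most of this sum, and the part of these markers in the result was not tested. Harvest day and group cannot be told apart in this step.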

How the results depend on the processing

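Of the member counts, those beyond 1.5-fold were 5 lower in TC and 4 higher from TC to PC under every alternative run. The count of members lower from PC to RC was 0 and became 1 (RBL2) with DESeq2 size factors, with DESeq2 and with only the 2 groups compared, and 0 to 1 with a library left out. Leaving out libraries moved the members' median log2 fold change in TC to between −1.27 and −0.89 (without CC replicate 3) and in RC to between 0.27 and 0.58 (without CC replicate 2). The G1 list had 5 genes higher in PC with DESeq2 and with its size factors, against 3, and 1 to 2 higher in TC and a PC median of −0.17 to −0.011 with a library left out. The other E2F, DP and RB genes had 1 lower in RC, against 2, with no filter and with only the 2 groups compared, and 1 to 2, with a median of −0.10 to 0.18, with a library left out. The MuvB list's TC median ran from −0.32 to −0.24 in the same way. The G1/S targets had 1 (CCNE2) lower from PC to RC with DESeq2, with its size factors and with only the 2 groups compared, and 0 to 1 with a library left out, and medians of 0.62 to 0.76 from TC to PC and 1.94 to 2.02 from PC to RC. The MAPK output genes had 1 higher from TC to PC with library totals, DESeq2, its size factors, only the 2 groups compared and the replicate block, 0 to 2 with a library left out, a median of −0.38 to −0.18, and 0 to 1 higher in TC and in PC.

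The log2 ratio of E2F7 plus E2F8 to the activators ran from −0.04 to 0.23 in TC and from −0.12 to 0.14 in PC with a library left out. It changed sign without CC replicate 3 (−0.039 in TC, −0.124 in PC) and without PC replicate 3 (−0.01 in PC). DUSP6 in RC ran from −0.54 to 0.65, the latter without CC replicate 3, against −0.22. The causes were not tested.

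Replicate numbers, and the numbers that end the column names of the counts, were shared between groups. The labels tie no number to a shared culture or day, and the deviations of same-numbered libraries correlated over 0.1 in only 2 of 18 pairs (−0.047 to 0.202), so the numbers were not taken as pairs. As a hint from the data that they may still share something, 9 of 12 libraries correlated best with their own number. With the replicate block, 275 values kept their side of the threshold, and E2F8 in RC (0.43, adjusted p = 0.0338) and E2F7 from TC to PC (0.26, adjusted p = 0.0399) gained a call. CCND3 in PC (0.23, adjusted p = 0.0514), LIN52 in RC (0.22, adjusted p = 0.0612) and LIN37 from PC to RC (−0.26, adjusted p = 0.0555) lost theirs. Adding the E2F2_1 counts to E2F2, chosen after the data were seen, gave −4.30 in TC and −3.18 in PC (adjusted p = 2e-05 and 9.2e-05). Counts were too few to test E2F2 under its own name, with 0 to 3 in a library, and MYB had 3 in each TC library.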
